A study of Mus musculus with 8 samples.

Results

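The genes of the major histocompatibility complex (MHC) and of peptide loading were examined in lumbar dorsal root ganglia (DRG) of FD mice, a model of Fabry disease, and of wildtype mice. The set held 38 genes named by symbol, a list drawn up with earlier results of these data known. It covered the class II chains and their loading proteins, the class I chains, the immunoproteasome, the peptide transporters and the class I loading complex. A gene was a member through every noncontrol probe of the array that carried its symbol. On this rule 35 of the 38 genes had 46 of the 55681 probes, and 30 genes had a probe that was well above background on all 8 arrays and could be tested (34 of 29432 tested probes). The array carried 34650 gene and transcript names, of which 21003 had a tested probe. No probe carried the symbols H2-L, H2-Q6 and H2-T22. Probes of H2-Eb2, H2-DMb2, H2-Oa, H2-Q1 and Ciita were present, but none was well above background on all arrays.

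FD samples came from male α-Gal A(-/0) mice, which lack the X-linked lysosomal enzyme α-galactosidase A, and wildtype samples from male C57BL/6J mice. The strain label was C57BL/6J in both groups, all animals were 20 to 24 weeks old, and no treatment is named for either group. Each of the 4 FD and 4 wildtype samples pooled L3-L5 ganglia of 2 mice. Both genotypes were bred as inbred colonies of their own, so colony and genotype cannot be told apart, and the gene is lost in every cell of the animal. All 8 samples were hybridised on 1 slide, with FD 1, FD 2, FD 3 and wildtype 1 in its first row and FD 4, wildtype 2, wildtype 3 and wildtype 4 in its second row. The probe of Gla, the targeted gene, averaged 16.59 ± 0.0956 in FD samples and 16.62 ± 0.108 in wildtype samples (log2 signal, SD, n = 4 each; limma, adjusted p = 0.879). It may lie outside the disrupted part of the gene, so it does not check the genotype. On the first principal component of all tested probes (32.9% of the variance) FD samples lay between 16.3 and 21.1 and wildtype samples between -32.7 and -14.9, with wildtype 1 the farthest out.

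MHC class I molecules sit on nearly all nucleated cells and present peptides made in the cytosol to CD8+ T cells. The peptides come from the proteasome, are carried into the endoplasmic reticulum by the TAP transporter, and are fitted into a heavy chain that pairs with B2m. Class II molecules are found mainly on macrophages, dendritic cells and B cells and present peptides from endosomes to CD4+ T cells. They need the invariant chain Cd74 and the exchange factor H2-DM. Interferon-gamma raises both systems, class II through the coactivator Ciita and class I through Nlrc5 and interferon regulatory factors. In DRG, resident macrophages around the neurons are the usual source of class II. Most of these genes lie together in the MHC region of mouse chromosome 17, whereas Cd74, B2m, Psmb10, Nlrc5, Ciita, Erap1, Tapbpl, Calr and Pdia3 lie elsewhere.

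Promoter stretches of the members on which the results turn are shown because class II genes are known to share the X and Y box elements through which Ciita acts, and several genes of the class I pathway to hold interferon-responsive elements. The sequences are RefSeq's on GRCm38.p6, 5′ to 3′ on the strand of the gene (the stretch shared by Tap1 and Psmb9 is given on the plus strand), and end at the annotated start site. Capitals mark the Y box core, ATTGG or its reverse complement, in H2-Aa, H2-Eb1, H2-DMb1, H2-T23, B2m and the stretch of Tap1 and Psmb9. They also mark the X box core, AACNGATG, in H2-Eb1 and H2-DMb1, and an interferon-response element, GAAA repeated after a gap of 2 bases, in H2-T23 and B2m (on the other strand in H2-T23). In Psmb8 they mark the GAS element, TTCNNNGAA. No capitals overlap between motifs.
H2-Aa (chr17:34287824-34287933, minus strand): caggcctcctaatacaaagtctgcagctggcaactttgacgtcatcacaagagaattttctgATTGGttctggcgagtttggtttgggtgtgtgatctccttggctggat
H2-Eb1 (chr17:34305757-34305866, plus strand): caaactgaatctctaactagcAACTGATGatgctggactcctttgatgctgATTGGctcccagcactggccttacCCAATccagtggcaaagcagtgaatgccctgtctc
H2-DMb1 (chr17:34153081-34153190, plus strand): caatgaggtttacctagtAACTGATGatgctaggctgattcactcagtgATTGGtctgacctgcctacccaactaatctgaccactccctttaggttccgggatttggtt
H2-T23 (chr17:36032702-36032851, minus strand): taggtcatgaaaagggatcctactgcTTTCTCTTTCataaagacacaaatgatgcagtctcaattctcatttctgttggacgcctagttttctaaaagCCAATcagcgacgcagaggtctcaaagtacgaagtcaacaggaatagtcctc
B2m (chr2:122147537-122147686, plus strand): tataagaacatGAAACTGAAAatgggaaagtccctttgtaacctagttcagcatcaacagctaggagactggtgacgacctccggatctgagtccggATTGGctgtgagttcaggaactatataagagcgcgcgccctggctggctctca
Psmb8 (chr17:34198085-34198194, plus strand): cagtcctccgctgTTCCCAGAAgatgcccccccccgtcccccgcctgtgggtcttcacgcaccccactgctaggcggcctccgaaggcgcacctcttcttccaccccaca
Tap1 and Psmb9 (chr17:34187331-34187555, plus strand): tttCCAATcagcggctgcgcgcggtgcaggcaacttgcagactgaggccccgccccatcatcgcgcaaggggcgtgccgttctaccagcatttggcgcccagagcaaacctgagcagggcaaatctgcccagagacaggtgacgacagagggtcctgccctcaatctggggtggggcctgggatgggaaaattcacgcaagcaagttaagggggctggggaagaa
The X box core stood 89 bases before the start site of H2-Eb1 and 92 bases before that of H2-DMb1, with a Y box core downstream of it at 59 and 61 bases. H2-Eb1 held a further Y box core at 35 bases. The Y box core stood 48 bases before the start site in H2-Aa, 52 bases in H2-T23 and 53 bases in B2m. The interferon-response element was found 124 bases before the start of H2-T23 and 139 bases before that of B2m. Tap1 and Psmb9 are transcribed away from each other, and the 225 bases between their start sites held 1 Y box core. Promoters from 250 bases before to 50 bases after the start were searched on both strands. Of the 38 members, 27 had such a sequence. The Y box core was found in 23 of the 27 and in 8 of 8 class II genes, but also in 37.4% of all 32851 promoters. The X box core was found in 4 members, H2-Eb1, H2-Eb2, H2-DMb1 and H2-DMb2, and in 2.32% of all promoters, and both cores together in these same 4 and in 0.88% of all promoters. The interferon-response element was found in B2m, Erap1, H2-T22 and H2-T23 (3.44% of all promoters), and the GAS element in H2-DMb2, H2-M3 and Psmb8 (8.3% of all promoters). These matches are descriptions of the letters only.

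Among the listed MHC genes, 2 class II chains and 1 immunoproteasome subunit were lower in FD DRGs than in wildtype DRGs. The values of the classical class I chains and B2m overlapped between the groups. Across the 30 tested members, 3 fell and 0 rose at an adjusted p under 0.05 (limma, Benjamini-Hochberg over all tested probes): H2-Aa by 1.40-fold, Psmb8 by 1.36-fold and H2-Eb1 by 1.29-fold. They were 3 of 34 member probes, against 1.11% of all tested probes called lower, 1.96% called higher and 3.07% called in either direction. At an unadjusted p under 0.05, 16 of the 34 probes were lower and 0 higher, against 6.98% and 10.7% of all tested probes. In 15 probes of 14 members, every FD sample lay below every wildtype sample, which 5.1% of all tested probes did, and no member showed the opposite separation (8.3% of all). The difference was negative in 28 of 34 probes (44.7% of all), with a median log2 fold change of -0.21 over the member probes and 0.02 over all tested probes. Because the members were chosen with earlier results of these data known, these shares are descriptive only.

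The calls rest on small differences, and the adjusted p-values of H2-Eb1 and Psmb8 lay just under the threshold. All 3 were lost when the row of the slide was added as a block (adjusted p = 0.0700 for H2-Aa, 0.0561 for H2-Eb1 and 0.0927 for Psmb8). Within the first and second rows the differences were -0.40 and -0.42 for H2-Aa, -0.35 and -0.47 for H2-Eb1, and -0.28 and -0.40 for Psmb8. The groups did not overlap in these genes, so the negative signs within rows were given in advance and are no separate check. The calls were also lost when any FD sample, wildtype 3 or wildtype 4 was left out, when the methods' t-test was used, and in the deposited table. Without wildtype 1, 5 member probes were called lower, with H2-Aa and Psmb8 among them and H2-Eb1 not. In bulk tissue, fewer cells of a type and less RNA per cell cannot be told apart.

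**Figure D1:**
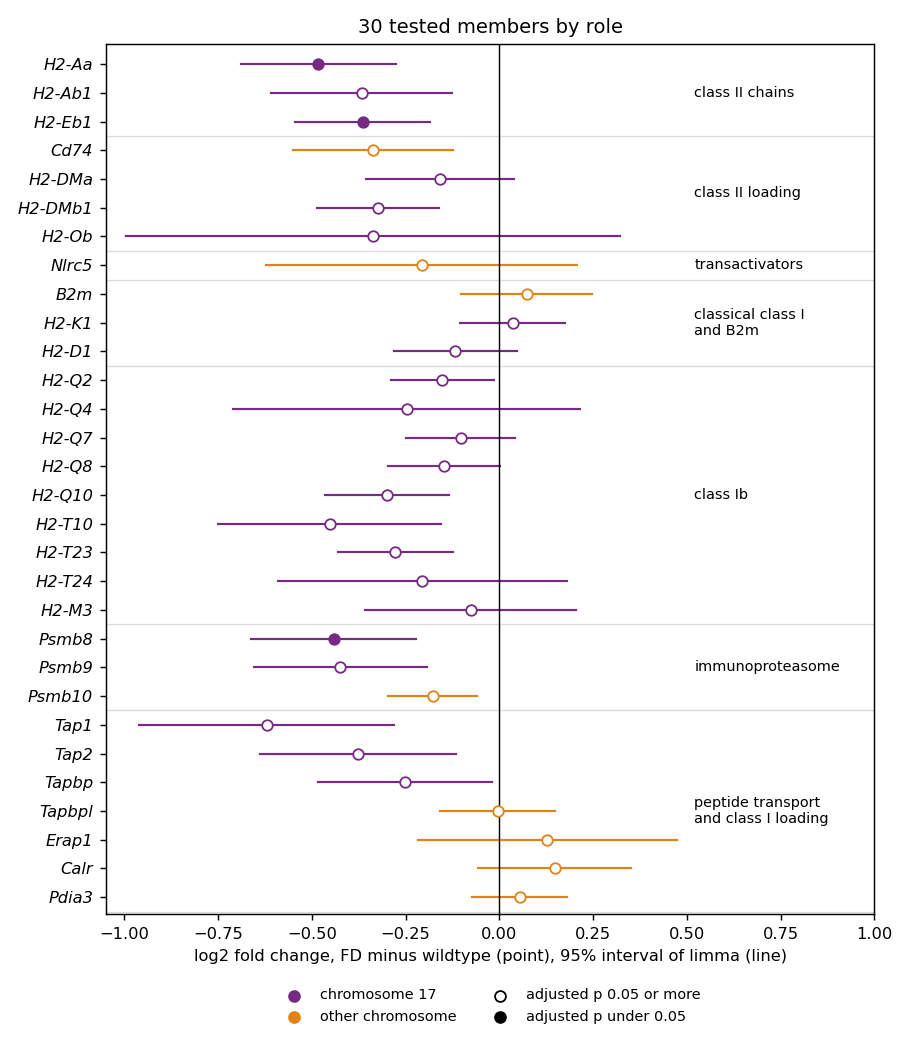
Log2 fold change of the 30 tested members, FD minus wildtype, by role (points, brightest probe of each gene) with the 95% interval of limma (lines). Filled points mark H2-Aa, H2-Eb1 and Psmb8, the 3 members at an adjusted p under 0.05, and 25 of the 30 points lie left of 0.

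Among the class II chain genes, H2-Aa and H2-Ab1 encode the chains of the peptide-binding heterodimer I-A, and H2-Eb1 encodes the beta chain of I-E. The arrays measured RNA, so whether an I-E heterodimer forms in these mice was not examined. All 3 tested chain genes had FD values below every wildtype value, as did 5.1% of all tested probes. Of these genes 2 fell, and their median log2 fold change was -0.37. H2-Aa, the alpha chain of I-A (chr17:34421285-34421344, mm9), had log2 signals of 9.81, 9.61, 9.85 and 9.89 in FD samples and of 10.16, 10.46, 10.29 and 10.17 in wildtype samples. The highest FD value thus stayed below the lowest wildtype value, and H2-Aa fell by 0.48 ± 0.0909 on the log2 scale (SE; limma, adjusted p = 0.0285). H2-Eb1, the beta chain of I-E (chr17:34453075-34453134), had 12.97, 12.76, 12.94 and 12.73 in FD samples and 13.24, 13.26, 13.29 and 13.07 in wildtype samples. Its groups did not overlap, with wildtype 4 the lowest of its group, and it fell by 0.36 ± 0.0793 (adjusted p = 0.0482). H2-Ab1, the beta chain of I-A, read 12.91, 12.80, 12.88 and 12.74 in FD samples and 13.04, 13.03, 13.50 and 13.24 in wildtype samples. Its FD values were again all below the wildtype values, but wildtype 3 stood above the other wildtype samples, and the difference of -0.37 did not pass the test (95% interval -0.61 to -0.13, adjusted p = 0.116). A second H2-Ab1 probe, which shares a run of 41 bases with the first, gave -0.40 (adjusted p = 0.0605). H2-Eb2 was not well above background on any array.

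Among the class II loading genes, 0 of 4 tested genes passed the test and all 4 differences were negative, with a median log2 fold change of -0.33. Cd74, the invariant chain that occupies the class II groove during transport and lies on chromosome 18, read 11.21, 11.14, 11.14 and 11.14 in FD samples and 11.63, 11.24, 11.65 and 11.46 in wildtype samples. The FD samples were nearly alike, and wildtype 2 came closest to them. The difference was -0.34 (95% interval -0.55 to -0.12, adjusted p = 0.103). H2-DMb1, the beta chain of the peptide exchange factor H2-DM, read 9.73, 9.67, 9.88 and 9.85 in FD samples and 10.06, 10.02, 10.23 and 10.11 in wildtype samples. It stood just outside the threshold without overlap of the groups (-0.32, adjusted p = 0.0504). H2-DMa, the alpha chain, read 9.36, 9.45, 9.32 and 9.47 in FD samples and 9.76, 9.37, 9.58 and 9.53 in wildtype samples. Wildtype 2 lay among the FD samples, and the interval of the difference held 0 (-0.36 to 0.04, adjusted p = 0.384). H2-Ob, a chain of the H2-DM inhibitor H2-O, spanned 5.75 to 6.87 in FD samples and 6.30 to 7.39 in wildtype samples, so that no difference was detectable. H2-Oa, its partner chain, was above background on 3 arrays of each group, and H2-DMb2 on none.

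**Figure D2:**
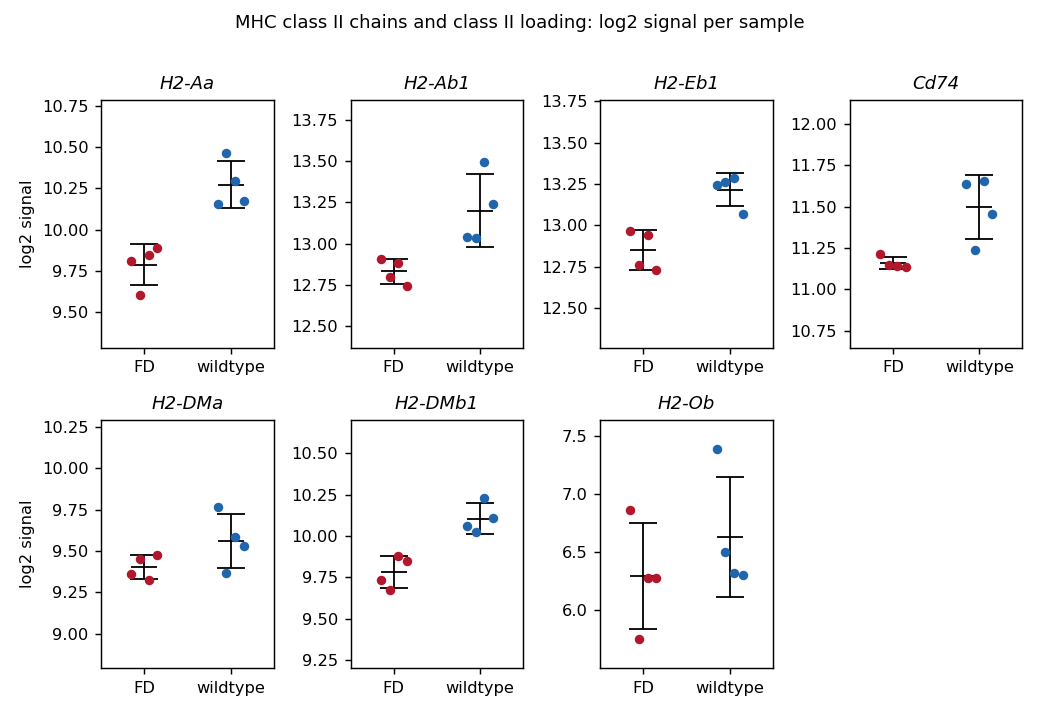
Log2 signal of the 7 tested class II members in each of 4 FD samples (left, red) and 4 wildtype samples (right, blue), with mean and SD as bars. The y axes differ between panels and do not start at 0. FD and wildtype values are separate for H2-Aa, H2-Ab1, H2-Eb1, Cd74 and H2-DMb1 and overlap for H2-DMa and H2-Ob.

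The regulators of these promoters were near the lower limit of the array or variable. Ciita, the coactivator on which class II transcription depends, read 4.51, 4.26, 4.06 and 4.42 in FD samples and 4.84, 4.78, 4.98 and 5.12 in wildtype samples. It was well above background on 0 of 4 FD arrays and 1 of 4 wildtype arrays, so it was not tested and no fold is given. Its probe also shares a run of 26 bases with a probe of Tenm1. Nlrc5, the class I counterpart, read 9.0, 8.83, 8.56 and 8.96 in FD samples and 8.66, 8.79, 9.28 and 9.44 in wildtype samples. The groups overlapped, with a difference of -0.21 (95% interval -0.62 to 0.21, adjusted p = 0.593).

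The classical class I chains and their light chain, which are found on nearly all cells, had overlapping values in both genotypes, and 0 of 3 tested genes passed the test. H2-K1, a classical heavy chain, read 14.13, 13.99, 14.04 and 14.05 in FD samples and 13.94, 13.95, 14.10 and 14.07 in wildtype samples on the brightest of its 3 probes. The values overlapped almost entirely, and the interval of the difference ran from -0.10 to 0.18 (0.04, adjusted p = 0.801). Its other 2 probes overlapped as well. H2-D1, the second classical heavy chain, read 13.95, 13.85, 13.68 and 13.86 in FD samples and 13.91, 13.87, 13.98 and 14.05 in wildtype samples. FD 3 was the lowest of the 8, and the interval was -0.28 to 0.05 (-0.12, adjusted p = 0.442). B2m read 14.53, 14.36, 14.41 and 14.48 in FD samples and 14.19, 14.45, 14.47 and 14.38 in wildtype samples. Wildtype 1 was the lowest and the other samples overlapped (0.07, 95% interval -0.10 to 0.25, adjusted p = 0.664). These 3 intervals leave room for small changes, and a difference as large as that of H2-Aa lies outside them. The difference between the class II and the classical class I genes was not itself tested.

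The nonclassical class Ib chains stood between these patterns. Of the 9 tested members 0 passed the test and all 9 differences were negative. In 3 all FD values lay below all wildtype values (5.1% of all tested probes), and the median log2 fold change was -0.21. Of 11 tested class I-like chains outside the list, 6 were positive, with H2-T9 called lower (-0.60, adjusted p = 0.0116) and Mr1 higher (0.46, adjusted p = 0.0117). H2-T24 and H2-M3 turned positive with the slide row as a block (0.0195 and 0.0602). H2-T23, which encodes Qa-1, the ligand of the NKG2A receptor of NK cells, read 13.03, 12.86, 12.89 and 12.90 in FD samples and 13.16, 13.09, 13.31 and 13.22 in wildtype samples. FD 1 was the FD sample closest to wildtype, and the difference was -0.28 (adjusted p = 0.0687). H2-Q10, a secreted class I chain, read 8.51, 8.19, 8.40 and 8.40 in FD samples and 8.65, 8.66, 8.67 and 8.72 in wildtype samples. The wildtype values lay close together above all FD values (-0.30, adjusted p = 0.0678). A second, dim H2-Q10 probe was above background on 4 FD and 3 wildtype arrays and was not tested. Its groups overlapped, at 4.78 to 5.50 in FD samples and 2.41 to 5.30 in wildtype samples. H2-T10, a ligand of gamma delta T cells, read 8.11, 8.20, 8.22 and 8.16 in FD samples and 8.23, 8.69, 8.92 and 8.66 in wildtype samples. Wildtype 1 lay next to the FD samples, and the difference was -0.45 (adjusted p = 0.114). H2-Q2, H2-Q4, H2-Q7, H2-Q8, H2-T24 and H2-M3, which presents formylated peptides, had overlapping groups and differences between -0.25 and -0.08. H2-Q4 read 16.26 in wildtype 1 and 15.30 to 15.40 in the other wildtype samples, against 15.22 to 15.52 in FD samples. H2-Q1 was above background on no array. Class I genes are close copies of each other, and probes of different genes shared runs of 20 bases or more: H2-T23 with H2-K1 (29 bases), H2-Q7 with H2-K2 (28 bases) and H2-Q8 with an unnamed transcript (54 bases). The level of a single class I gene is therefore uncertain.

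The inducible subunits of the proteasome replace the constitutive ones after interferon-gamma and favour peptides that fit class I. Their FD values lay below all wildtype values in 3 of 3 genes (5.1% of all tested probes). One of them fell, and the median log2 fold change was -0.42. Psmb8 (chr17:34337771-34337830) read 10.37, 10.32, 10.18 and 10.43 in FD samples and 10.57, 10.68, 10.89 and 10.94 in wildtype samples. Its wildtype values were higher in the wildtype 3 and wildtype 4 samples than in the others, and it fell by 0.44 ± 0.0967 (adjusted p = 0.0485). Psmb9 read 9.93, 9.68, 9.77 and 9.94 in FD samples and 10.08, 10.14, 10.39 and 10.43 in wildtype samples. Wildtype 3 and wildtype 4 were again highest (-0.42, adjusted p = 0.0640). Psmb10 on chromosome 8 read 14.11, 14.07, 14.16 and 14.18 in FD samples and 14.36, 14.31, 14.29 and 14.27 in wildtype samples. The separation was narrow and complete (-0.18, adjusted p = 0.121). The constitutive proteasome subunits and activators gave 0 calls in 17 tested genes with a median of -0.02. Psme1, a subunit of the interferon-inducible activator, had the smallest adjusted p among them (-0.16, adjusted p = 0.194).

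Of the 7 tested genes of peptide transport and class I loading, 0 passed the test. The 3 on chromosome 17 had FD values below all wildtype values (5.1% of all tested probes). Tap1, a subunit of the peptide transporter, read 7.04, 6.87, 6.80 and 6.82 in FD samples and 7.37, 7.10, 7.72 and 7.81 in wildtype samples. It had the largest difference of the members, 1.54-fold lower, and a wide spread in wildtype, with wildtype 2 next to FD 1 (-0.62, 95% interval -0.96 to -0.28, adjusted p = 0.0650). Tap2, its partner subunit, read 12.54, 12.53, 12.17 and 12.45 in FD samples and 13.02, 12.56, 12.82 and 12.80 in wildtype samples. Wildtype 2 lay just above the FD samples (-0.38, adjusted p = 0.130). Tapbp, which encodes the bridging protein tapasin, ranged over 11.50 to 11.62 in FD samples and 11.64 to 12.13 in wildtype samples (-0.25, adjusted p = 0.245). The 4 on other chromosomes overlapped between the groups. These were the tapasin relative Tapbpl (-0.00), the peptide-trimming aminopeptidase Erap1 (0.13), the chaperone calreticulin, Calr (0.15), and the disulphide isomerase Pdia3 (0.05), at adjusted p-values from 0.432 to 0.980.

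**Figure D3:**
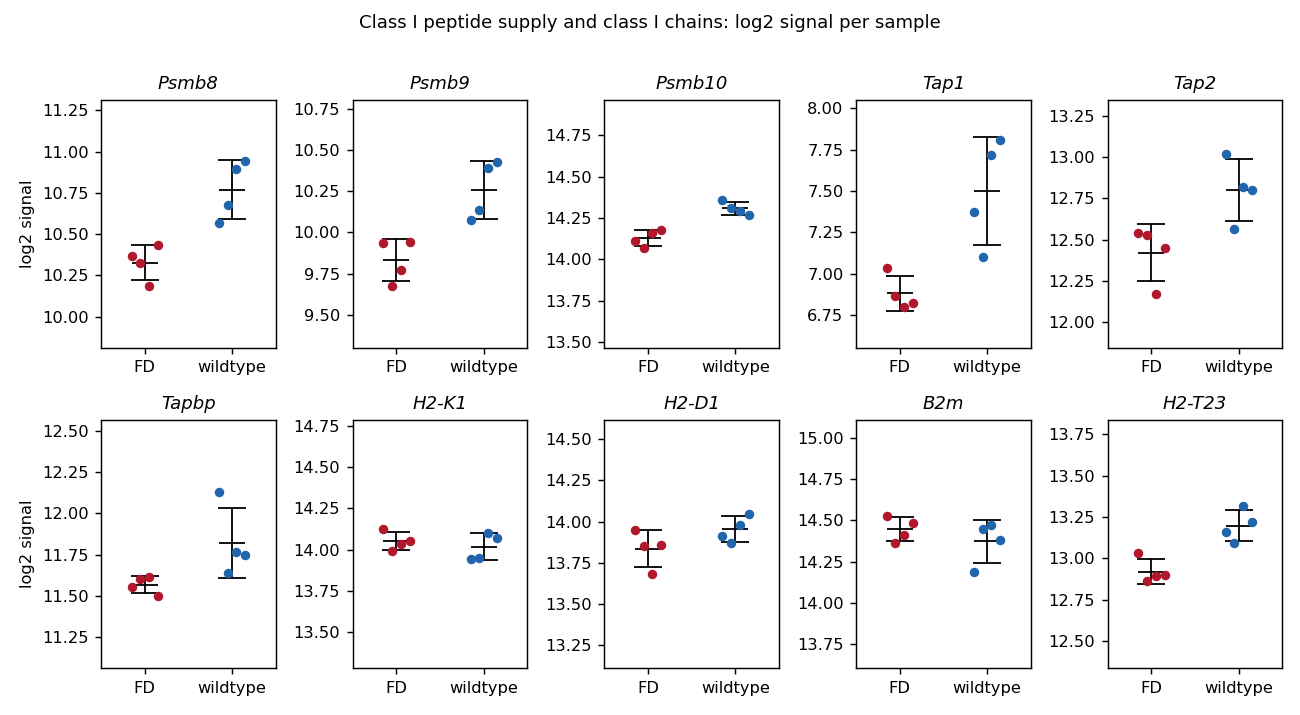
Log2 signal of the immunoproteasome, transporter and tapasin genes, the classical class I chains, B2m and H2-T23 in each of 4 FD samples (left, red) and 4 wildtype samples (right, blue), with mean and SD as bars. The y axes differ between panels and do not start at 0. The groups are separate for Psmb8, Psmb9, Psmb10, Tap1, Tap2, Tapbp and H2-T23 and overlap for H2-K1, H2-D1 and B2m.

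The samples differed among themselves within these patterns. Expressed as the median difference from the wildtype mean, the class II members stood at -0.28, -0.43, -0.32 and -0.36 in FD samples and at 0.03, -0.12, 0.07 and -0.04 in wildtype samples, without overlap. The immunoproteasome and loading members stood at -0.23, -0.23, -0.18 and -0.22 in FD samples and at -0.04, -0.11, 0.04 and 0.05 in wildtype samples. The class I members stood at -0.10, -0.20, -0.22 and -0.12 in FD samples and at -0.04, -0.07, 0.03 and 0.05 in wildtype samples. These groups did not overlap either, and wildtype 2 was the wildtype sample closest to FD in all 3 sets. Among the 14 members whose groups did not overlap, wildtype 2 was the lowest wildtype sample in 7 and wildtype 3 in 0, and wildtype 3 was the highest in 6.

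**Figure D4:**
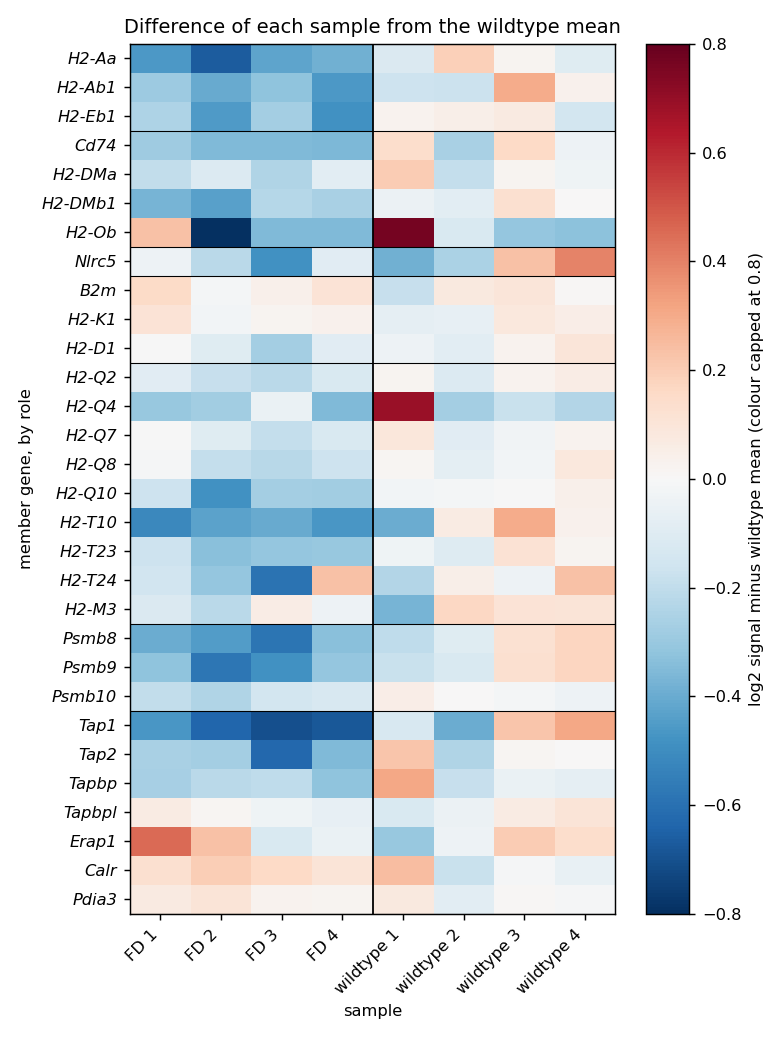
Difference of each sample from the wildtype mean (log2, colour) for the 30 tested members by role, with FD samples left of the line and wildtype samples right of it. Blue fills the FD columns in the class II, immunoproteasome and Tap rows, except for H2-Ob in FD 1 (6.87 against a wildtype mean of 6.63). H2-K1 and B2m stay pale, and single wildtype 1 values of H2-Ob and H2-Q4 stand out in red.

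The members on chromosome 17 were then set against those on other chromosomes. Of 22 tested members on chromosome 17, 3 fell, 21 had a negative difference and 12 had FD values below all wildtype values, with a median log2 fold change of -0.29. Of 8 on other chromosomes, 0 passed the test, 4 had a negative difference and 2, Cd74 and Psmb10, had FD values below all wildtype values, with a median of 0.03. Over all tested probes, 1.11% were called lower, 44.7% had a negative difference and 5.1% had FD values below all wildtype values. The chromosomes hold different roles: all tested class II chains and class Ib chains lie on chromosome 17, and 4 of the 8 others are the loading genes Tapbpl, Erap1, Calr and Pdia3. Position and role cannot be told apart in these counts. Some roles hold members on both. In class II loading, H2-DMa, H2-DMb1 and H2-Ob on chromosome 17 differed by -0.16, -0.32 and -0.34, and Cd74 on chromosome 18 by -0.34. In the immunoproteasome, Psmb8 and Psmb9 on chromosome 17 differed by -0.44 and -0.42, and Psmb10 on chromosome 8 by -0.18. In peptide transport and loading, Tap1, Tap2 and Tapbp on chromosome 17 differed by -0.62, -0.38 and -0.25, and the 4 genes elsewhere by -0.00 to 0.15. Among the classical class I genes, H2-K1 and H2-D1 on chromosome 17 differed by 0.04 and -0.12, and B2m on chromosome 2 by 0.07.

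The MHC region was taken as the 3.28 Mb between the outermost class II and class I member probes (chr17:34133055-37411409, mm9). Its 137 other tested probes had a median of -0.03, with 4 called higher and 6 called lower. The 1311 tested probes of chromosome 17 outside it had a median of 0.03, with 49 called higher and 10 called lower. Of all tested probes, 1.96% were called higher and 1.11% lower. Several neighbours differed far more than any member. Rnf39, a ring finger gene, rose by 2.84 (7.18-fold, adjusted p = 2.04e-07). A probe without a gene name at chr17:36214591-36214650 fell by 3.48 (adjusted p = 3.35e-05), and probes of intergenic transcripts at chr17:36131418-36131477 and chr17:36135888-36135947 fell by 2.13 (adjusted p = 5.72e-06) and 3.24 (adjusted p = 9.71e-06). The smaller calls were H2-T9, a class Ib chain (-0.60, adjusted p = 0.0116), Gtf2h4, a subunit of the general transcription factor TFIIH (-0.42, adjusted p = 0.00478), Vars2, the mitochondrial valyl-tRNA synthetase (-0.39, adjusted p = 0.0426, with a second probe at -0.08, adjusted p = 0.675), Neu1, the lysosomal sialidase (0.43, adjusted p = 0.00644), and a pair of intergenic probes (0.40 and 0.39).

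Further probes of the region were well above background in a single genotype. Their number was counted after the values were seen. Of 246 nonmember probes, 6 were well above background on all 4 FD arrays and 0 wildtype arrays, and 4 on all 4 wildtype arrays and 0 FD arrays. Across the array these patterns were shown by 69 probes (0.124%) and 17 probes (0.0305%), and by 0 of the 46 member probes. The 4 wildtype-only probes lay between 36131417 and 36136211, beside the intergenic probes named above, and were at least 1.60-fold to at least 7.56-fold lower in FD samples. The bound sets the wildtype mean against the mean of the lowest signal well above background on each FD array, or the probe's own where that was higher. The FD-only probes, named here after their values were seen, included Trim40, a tripartite motif gene, at least 3.14-fold higher in FD samples, and H2-M5, a class I-like chain, at least 1.27-fold higher. For them the bound was taken in the same way with the groups exchanged. The member probe nearest to the wildtype-only probes, that of H2-T24, starts at 36142640. It read 6.84, 6.68, 6.40 and 7.22 in FD samples and 6.75, 7.03, 6.95 and 7.22 in wildtype samples (-0.21, adjusted p = 0.570). Its groups overlapped.

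**Figure D5:**
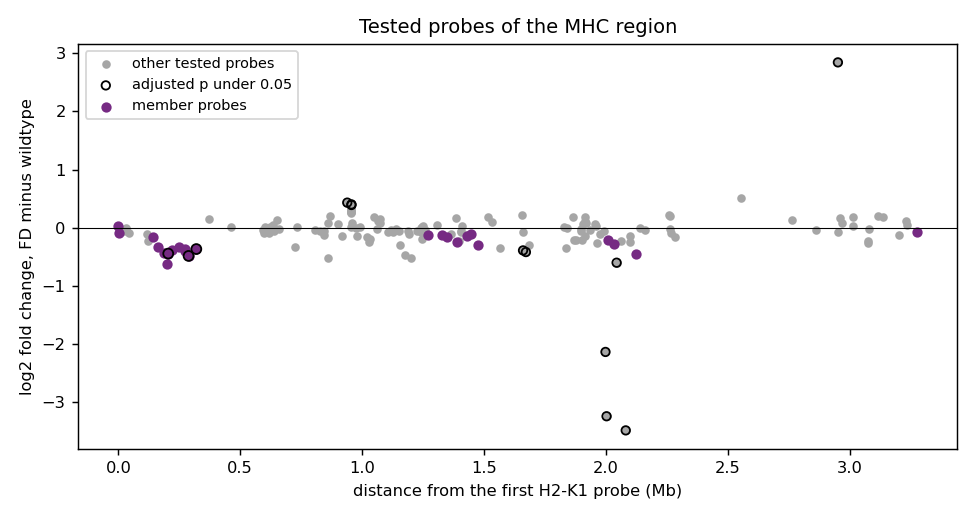
Log2 fold change, FD minus wildtype, of the tested probes of the MHC region against their distance in Mb from the first H2-K1 probe (purple, member probes; grey, other probes; black rings, adjusted p under 0.05). Members lie between -0.62 and 0.04, while 3 other probes near 2 Mb lie at -2.13, -3.24 and -3.48 and Rnf39 lies at 2.84.

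Genes of the same pathways that are no members gave 2 calls higher and 1 lower among 67 tested, with a median log2 fold change of -0.02. Of all tested probes, 1.96% were called higher and 1.11% lower. The calls were Cd63, a tetraspanin of late endosomes where class II is loaded (0.53, adjusted p = 0.00131), Mr1, which presents vitamin metabolites to MAIT cells (0.46, adjusted p = 0.0117), and H2-T9. Of the 14 tested genes of lysosomal processing, 10 had a positive difference (median 0.07), among them the protease Ctsd (0.19, adjusted p = 0.0728) and the thiol reductase Ifi30 (0.28, adjusted p = 0.0818). Of 12 tested transcription factors of MHC promoters, 0 passed the test and 9 were negative, with Irf8 (-0.36, adjusted p = 0.0675) and Irf1 (-0.38, adjusted p = 0.0789) at the smallest adjusted p-values. All 5 tested costimulatory genes were negative and 0 passed, including Cd86 (-0.51, adjusted p = 0.106).

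Interferon-induced genes outside the set were examined beside the members. Of 25 tested, 4 fell and 0 rose: Isg15, a ubiquitin-like modifier (-0.76, adjusted p = 0.00732), Oasl2, a relative of the oligoadenylate synthetases (-0.53, adjusted p = 0.00845), the guanylate-binding protein Gbp6 (-0.59, adjusted p = 0.0121) and Ifit1 (-0.54, adjusted p = 0.0462). The median was -0.54, 24 differences were negative, and 15 genes had FD values below all wildtype values. Over all tested probes, 1.11% were called lower, 44.7% were negative and 5.1% had FD values below all wildtype values. This list too was chosen with earlier results of these data known, and its calls were not examined with the slide row as a block. The summed signal of the 25 genes was 31500 to 34200 in FD samples and 37600 to 50300 in wildtype samples. By sample, the list stood at -0.36, -0.65, -0.64 and -0.52 in FD samples and at -0.18, -0.21, 0.23 and 0.13 in wildtype samples. Wildtype 3 and wildtype 4 were thus highest here, as they were for Psmb8, Psmb9 and Tap1. Other members differed in this order: Psmb10, Tap2 and Tapbp were highest in wildtype 1 and H2-Aa in wildtype 2. Among the 14 members whose groups did not overlap, wildtype 3 was highest in 6, wildtype 4 in 4, wildtype 1 in 3 and wildtype 2 in 1. The part of this shift in the members' values was not tested.

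Markers of the cells that carry class II were examined beside the members. Of 13 tested macrophage markers 0 passed the test and 11 were negative (median -0.11). Their summed signal overlapped, at 24700 to 28300 in FD samples and 25300 to 29900 in wildtype samples. Most of it came from the bright Itgam probe (-0.03), and every sum given here is weighted to the brightest probes of its list. The markers with the smallest adjusted p-values pointed in opposite directions: Cd68, a lysosomal protein of macrophages, differed by 0.51 (adjusted p = 0.0573), and Laptm5 by -0.61 (adjusted p = 0.0870). Of 8 tested dendritic cell markers 0 passed, with a median of -0.01 and sums of 46000 to 61900 in FD samples and 51900 to 66200 in wildtype samples, and Xcr1 and Clec9a were not well above background on all arrays. Nearly all of this sum came from the bright Siglech probe. The markers with the smallest adjusted p-values were Flt3, whose FD values all lay above the wildtype values (0.22, adjusted p = 0.119), and Zbtb46 (0.23, adjusted p = 0.235). Only 4 of 8 B cell markers and 4 of 11 T and NK cell markers could be tested, without a call, and the defining B cell genes Ms4a1 and Pax5 were not among them. The summed signals were 862 to 997 in FD samples and 844 to 954 in wildtype samples for B cells, and 3520 to 4220 in FD samples and 3530 to 4110 in wildtype samples for T and NK cells. Endothelial markers gave 0 calls in 8, with 7 negative differences (median -0.16). Their sums were 30600 to 33000 in FD samples and 32800 to 35600 in wildtype samples. The summed signals of 2 supporting cell types did not overlap between the groups: fibroblast markers summed to 107000 to 123000 in FD samples and 125000 to 149000 in wildtype samples, and Schwann cell markers to 88500 to 97300 in FD samples and 97500 to 106000 in wildtype samples, with 0 of 6 genes called in each. Most of each sum came from a single bright probe, Dcn for fibroblasts and Pmp22 for Schwann cells. Single genes had all FD values below all wildtype values in 1 of 6 and 2 of 6, against 5.1% of all tested probes. All 6 differences were negative in each of these lists, with a median of -0.10 for fibroblasts and -0.15 for Schwann cells. The sensory neuron markers of the labelled tissue were all above background, with 11 of 11 tested and summed signals of 887000 to 932000 in FD samples and 871000 to 940000 in wildtype samples. Among them Snap25, a synaptic vesicle fusion protein, fell (-0.47, adjusted p = 0.00443). The part of any of these cell types in the members' differences was not tested.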

How the data were processed

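Total RNA of pooled lumbar DRGs was labelled with Cy3 and hybridised to Agilent mouse arrays with 1 colour. The deposited scanner files hold intensity values made by the authors with Agilent Feature Extraction 10.7.3.1 (processed signal, background-subtracted). A deposited table of log2 values, quantile normalised by the authors in GeneSpring, served as an alternative. Here, control and outlier spots were left out, spots of a probe were averaged, and log2 signals of 55681 probes were quantile normalised with limma 3.58.1 (R 4.3.3). Probes well above background on all 8 arrays (at least 0.5 of a probe's spots) were tested with lmFit and eBayes, FD minus wildtype, with Benjamini-Hochberg adjustment over 29432 probes and a threshold of 0.05. limma replaced the Welch test that the study's methods name, which was run as an alternative. Quantile normalisation assumes a common signal distribution, so a global shift would not be seen. The fit was tested on simulated data. A gene was counted by its brightest tested probe, and signals of different probes were not compared.

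Members and lists were chosen with earlier results of these data known. Every sample's value is given for members that passed the test and for 13 main members, and for others that the text describes. Of each other list at most 4 genes, and of the MHC region at most 10, were named by smallest adjusted p. Trim40, H2-M5, Itgam and probes detected in a single genotype were added after their values were seen. Probe positions are mm9, as in the files; no mm9 annotation was used here, so exon or UTR is not given. Replicates are pools of 2 mice, and p-values measure the spread between these pools. Their number limits the precision. Between 93 and 221 spots per array were outliers, 0 were saturated, and 56.5% to 60.8% of probes were above background. Replicates correlated at 0.996 to 0.998 in FD and 0.991 to 0.996 in wildtype. Alternatives covered normalisation, background, filter, test, blocks, weights, probe choice and left-out samples, and values within slide rows were added after seeing the data.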

Additional observations from a re-analysis of the deposited data

Results flagged for a closer look

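In 3 of 68 groups of 4 samples examined, a single sample stood apart from the other 3 by Dixon's criterion, and chance marks about 1 in 20 groups. Cd74 read 11.21 in FD 1 and 11.14 in each of the other FD samples, a gap of less than 0.1 on the log2 scale. H2-Q4 read 16.26 in wildtype 1 and 15.30 to 15.40 in the other wildtype samples. H2-M3 read 9.51 in wildtype 1 and 9.99 to 10.05 in the other wildtype samples. A second Psmb9 probe, which was left out of the comparison because it was dim, read 7.71 in FD 4, where it was above background, and 2.48 to 4.61 in the other 7 samples, where it was not. The brightest Psmb9 probe read 9.94 in FD 4.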

How the results depend on the processing

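The directions of H2-Aa, H2-Eb1 and Psmb8 held under all 22 alternatives, but many of these could hardly change them. Their groups did not overlap, and the t-test, the replicate block and the filters left the fold change as it was. The calls did not hold: H2-Aa was called in 9 alternatives, Psmb8 in 6 and H2-Eb1 in 5. With the replicate block, the adjusted p was 0.133 for H2-Aa and 0.0947 for H2-Eb1. Each gene has a single tested probe, so averaging probes or finding members by RefSeq transcript only repeated the reported fit. The calls under those settings are no separate check. Members called lower, 3 as reported, numbered 7 with normexp background correction, 1 with probes above background on at least 4 arrays, 11 with array weights (12 probes), and 0 with the deposited table, with no filter on background, with the methods' t-test, with the slide row as a block and within slide row 1 or 2. No alternative called a member higher. Leaving out single samples gave 0 to 5 probes and 0 to 4 members lower: 0 without any FD sample, wildtype 3 or wildtype 4, H2-Aa, Psmb8 and other members without wildtype 1, and Cd74, H2-Aa and Tap1 without wildtype 2. It gave 252 to 656 of all probes higher and 156 to 387 lower, 8 to 11 calls in the MHC region, and medians of -0.392 to -0.284 for class II, -0.183 to -0.123 for class I, -0.246 to -0.156 for immunoproteasome and loading, -0.325 to -0.248 for chromosome 17 and -0.018 to 0.042 for other chromosomes. This last median was -0.109 within slide row 2. All probes called higher (578 as reported) numbered 384 in the deposited table, 350 with no filter, 170 with the t-test, 1306 with array weights, 155 within slide row 1 and 1 within slide row 2. Those called lower (326) numbered 206 with no filter, 96 with the t-test, 796 with array weights, 200 within slide row 1 and 14 within slide row 2. Calls in the MHC region (10) numbered 18 in the deposited table, 20 with the looser filter, 18 with no filter, 5 with the t-test, 5 within slide row 1 and 2 within slide row 2. The rows hold 4 samples each, with 1 sample of one genotype, assumed to vary like the other group; elsewhere the cause was not tested.

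The replicate numbers did not pair the samples: same-numbered deviations correlated at 0.0625, -0.245, -0.0467 and -0.0206, and only replicate 1 correlated best with its own number. With the replicate block, 0 members and member probes were called, with 170 probes higher and 114 lower overall and 4 calls in the MHC region.

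Small differences changed sign: Nlrc5 was 0.14 within slide row 1, H2-K1 -0.0061 with array weights and -0.0162 as the mean of its probes, H2-T24 0.0195 with the slide row as a block and 0.15 within row 2, H2-M3 0.0602 with the row as a block and 0.29 within row 1, Erap1 -0.15 within row 2, and Calr -0.0872 and Pdia3 -0.0125 within row 1. Tapbpl was 0.0072 with 75th percentile scaling, 0.0151 with normexp, 0.0176 with the row block, 0.14 within row 1 and -0.0464 to 0.0306 with single samples left out.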
